A study of Mus musculus with 14 samples.

Results

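The genes described here are 10 crystallins chosen by name: the alpha-crystallins Cryaa and Cryab, the beta-crystallins Cryba1, Cryba2, Cryba4, Crybb1, Crybb2 and Crybb3, the gamma-crystallin Crygs, and mu-crystallin (Crym). They are 10 of 34452 mouse gene rows, and all 10 passed the filter on low counts. Their RNA was read in libraries of the retinal pigment epithelium (RPE, the monolayer that underlies and nourishes the photoreceptors) of 7 rd1 mice on the FVB/N background at postnatal day 20. All of these mice lack Pde6b function, which kills the rods early in life. In the control eye of each mouse the only vector was AAV-Best1-GFP, an adeno-associated virus with the 7M8 capsid, and the Nrf2 eye received the same vector together with AAV-Best1-Nrf2, an AAV8 that carries human Nrf2. Both transgenes were driven by the human Best1 promoter, which is active in the RPE, so the Nrf2 eyes carried both a further transgene and a further vector. RPE RNA was taken up from the eyecup after the retina had been pulled away, and it was amplified before sequencing, so RNA of other cells left on the eyecup would be measured too.

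Crystallins are the abundant soluble proteins of the lens, where they are packed densely enough to refract light. The alpha-crystallins are small heat shock proteins that hold unfolding proteins in solution, and Cryab is also made widely outside the lens, in muscle for example. The beta- and gamma-crystallins form 1 superfamily of compact structural proteins, of which Crygs is the gamma member that the adult lens keeps making. Crym is unrelated in sequence to these families and is known as a ketimine reductase that binds thyroid hormone. Nrf2 binds antioxidant response elements as a partner of small Maf proteins, and a related motif is read by the large Maf factors that drive crystallin genes in the lens.

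The stretches of DNA just before crystallin genes are shown first, because the study forced expression of a factor that reads Maf-type motifs. Of the 10 genes, 8 had an entry in the RefSeq promoter table of GRCm38.p6. Cryab and Crym had no entry. In the 250 bases before each start, both strands were searched for TGACNNNGC (the core of the antioxidant response element), TGCTGAC (1 arm of the Maf recognition element) and GAANNTTC (the core of a heat shock element). TGACNNNGC and TGCTGAC can share the letters TGAC. The core TGACNNNGC was present before 5 of the 8 genes, and 10.16% of all 32851 promoters of this length hold it. TGCTGAC stood before 4 of the 8, against 3.81% of all promoters, and GAANNTTC before 0 of the 8, against 6.69%. The fused form, TGCTGAC running on into any 3 bases and GC, was looked for after the matches had been seen. It was present before Cryaa, Cryba1 and Crybb1 and in 0.25% of all promoters. These 3 windows are printed to show the shared motif, with that of Cryba2, which has 3 matches to the core (the first on the other strand). Matches are in capitals, and each sequence runs 5′ to 3′ on the gene's strand and ends at the base before the RefSeq start.
Cryaa, chr17:31677681-31677930, plus strand, match at -108 to -97: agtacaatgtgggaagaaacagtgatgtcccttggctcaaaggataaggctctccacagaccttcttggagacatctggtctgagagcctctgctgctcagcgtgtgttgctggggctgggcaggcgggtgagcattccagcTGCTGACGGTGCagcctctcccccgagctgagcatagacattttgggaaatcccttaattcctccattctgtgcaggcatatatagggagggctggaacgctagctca
Cryba1, chr11:77725294-77725543, minus strand, match at -57 to -46: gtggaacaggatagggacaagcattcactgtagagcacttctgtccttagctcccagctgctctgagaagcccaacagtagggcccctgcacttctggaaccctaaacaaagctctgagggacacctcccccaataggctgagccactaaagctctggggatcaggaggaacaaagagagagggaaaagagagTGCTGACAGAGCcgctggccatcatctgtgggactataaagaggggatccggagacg
Crybb1, chr5:112255570-112255819, plus strand, match at -84 to -73: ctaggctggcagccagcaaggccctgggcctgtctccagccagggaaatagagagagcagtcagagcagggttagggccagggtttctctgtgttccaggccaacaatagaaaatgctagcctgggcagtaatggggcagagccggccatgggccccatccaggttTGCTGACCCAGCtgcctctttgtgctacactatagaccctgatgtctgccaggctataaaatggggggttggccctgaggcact
Cryba2, chr1:74893144-74893393, minus strand, matches from -188, -105 and -59: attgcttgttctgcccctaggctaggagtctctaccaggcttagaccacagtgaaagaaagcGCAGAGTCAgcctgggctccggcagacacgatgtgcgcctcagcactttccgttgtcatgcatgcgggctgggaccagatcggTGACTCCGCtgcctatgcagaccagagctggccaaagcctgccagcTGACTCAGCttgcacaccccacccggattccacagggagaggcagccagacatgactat
Cryba4 had 2 matches to TGCTGAC (from -182 and -135), Crygs had 1 antioxidant core (from -58), and Crybb2 and Crybb3 had none of the 3 motifs in this window. The RefSeq starts of Cryaa and Crygs lie inside the gene spans given below, and so do the matches at these genes. A match is a run of letters, and no binding was measured in these samples.

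By the GRCm38 annotation the genes lie on 7 chromosomes. Cryaa is at chr17:31677807-31681733, Cryab at chr9:50751325-50756636, Cryba1 at chr11:77718615-77725283, Cryba2 at chr1:74889934-74893143, Crygs at chr16:22805203-22811577 and Crym at chr7:120186380-120202111. The other 4 are on chromosome 5. Cryba4 (chr5:112246493-112252518) and Crybb1 (chr5:112255815-112269585) point away from each other, with 3297 bases between their starts. Crybb2 (chr5:113058258-113070117) and Crybb3 (chr5:113075839-113081584) follow each other on the minus strand, with 11467 bases between their starts. Cryab overlaps Hspb2 on the other strand, and Cryaa, Cryba1 and Crybb2 likewise overlap 1 gene each, so some of their reads may be shared if counting did not use strand.

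Total counts ranged from 16548349 (Nrf2 2) to 50543008 (Nrf2 7) per library. A library is called by its group and the number of its mouse, and CPM values are estimated counts scaled to a library total of 1e+06. The vector transcript, human NFE2L2, stood between 4577 and 8711 CPM in 6 Nrf2 libraries and between 1.12 and 175 CPM in 6 control libraries. It was 1163 CPM both in the library labelled control 3 and in the library labelled Nrf2 4. These libraries were also the closest of all 91 pairs: the SD of their log2 CPM difference over 14932 genes was 0.423, the next closest pair stood at 0.605, and both eyes of 1 mouse differed by 0.806 to 1.41. Their crystallin values were alike as well, with ratios of control 3 to Nrf2 4 from 0.811 (Crym) to 1.10 (Cryaa). Therefore, results are also given without mice 3 and 4. The RPE was represented in every library: 12 RPE genes summed to between 6929 and 31280 CPM, and Rpe65, the isomerase of the visual cycle, stood between 134 and 2221 CPM. Mouse Best1 itself was low, at 0.302 to 3.84 CPM.

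To determine how much crystallin RNA the RPE libraries contained, levels were compared across the 14 libraries. Cryaa, the alpha-crystallin of the lens, was the member with the highest level in any library. In control eyes its lowest, median and highest levels were 87.9, 535 and 2480.4 CPM. The corresponding levels in Nrf2 eyes were 16.5, 577 and 2251 CPM. The groups overlapped over nearly their whole range: the lowest library was Nrf2 7, and the highest were control 3 and Nrf2 4. The 149.96-fold distance between the lowest and the highest library rested on counts of 836 and 82027. The SD of log2 CPM over the 14 libraries was 2.04, larger than in 97.9% of 14932 genes with a mean of at least 1 CPM, whose median SD was 0.405. In bulk RNA, fewer cells of a kind and less RNA in each cannot be told apart.

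The beta-crystallins of the acidic type followed the same libraries. Cryba1, the most abundant of them, had its lowest, median and highest level at 36.2, 216 and 865 CPM in control eyes and at 6.77, 253 and 837 CPM in Nrf2 eyes. Cryba2 ranged from 6.01 through a median of 35.1 to 133 CPM in control eyes and from 1.44 through 41.4 to 132 CPM in Nrf2 eyes. For Cryba4 the values were 6.28, 32.3 and 145 CPM in control eyes and 2.85, 43.1 and 142 CPM in Nrf2 eyes. In all 3 genes the lowest library was Nrf2 7 and the highest was control 3, and the medians of the groups lay close together within ranges of at least 51.0-fold.

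Among the basic beta-crystallins, Crybb2 was the most abundant. It stood at 34.4, 194 and 719 CPM (lowest, median and highest) in control eyes and at 6.51, 229.6 and 658 CPM in Nrf2 eyes, and its highest library was control 1, closely followed by control 3 at 715 CPM. Crybb1 ranged from 17.5 through 108 to 571 CPM in control eyes and from 6.03 through 98.6 to 581 CPM in Nrf2 eyes. Crybb3 had 11.6, 62.4 and 323 CPM in control eyes and 2.55, 56.9 and 311 CPM in Nrf2 eyes. Nrf2 7 was again the lowest library in all 3 genes. Crygs, the gamma-crystallin, ranged from 23.4 through 120.1 to 464 CPM in control eyes and from 3.52 through 173 to 478 CPM in Nrf2 eyes, with Nrf2 7 lowest and Nrf2 4 highest.

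**Figure D1:**
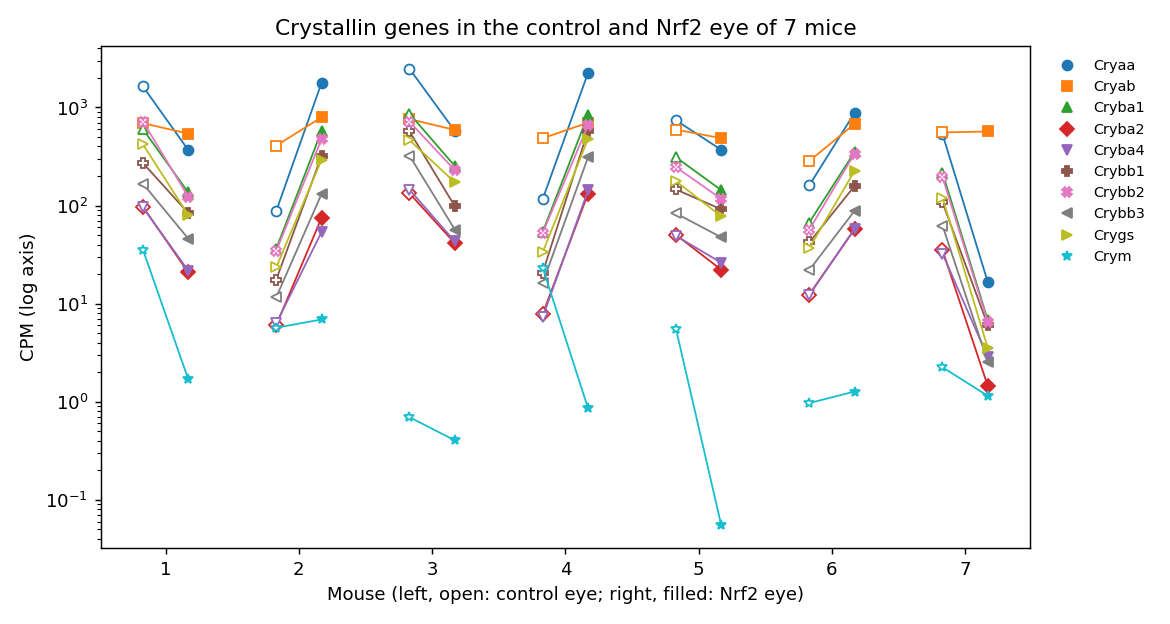
CPM of the 10 crystallin genes (log axis) in the control eye (open symbols) and the Nrf2 eye (filled symbols) of each of 7 mice, with a line between the eyes of a mouse. Cryaa and the beta- and gamma-crystallins moved as 1 band, from 16.5 CPM for Cryaa in Nrf2 7 to 2480.4 CPM in control 3, while Cryab stayed between 284 and 793 CPM and Crym followed a course of its own.

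These 8 genes (all but Cryab and Crym, a split made after the values were seen) kept nearly constant proportions while their sum changed. Their summed level was lowest in Nrf2 7, at 46.2 CPM, and highest in control 3, at 5697 CPM, a distance of 123-fold. Without Nrf2 7 it was still 25.5-fold. The sum made up between 0.00462% (Nrf2 7) and 0.570% (control 3) of all counts of a library. Over the 14 libraries, Pearson's r of log2 CPM between members of this group was 0.972 to 0.999 (28 pairs, median 0.991) and Spearman's rho was 0.978 to 0.996. Without control 3 and Nrf2 4 the r was 0.973 to 0.998, and without the 2 libraries farthest from the median of the first gene of each pair it was 0.956 to 0.997. These r describe libraries that differ in depth and in the amount of other RNA, and their points share both.

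Cryaa held between 35.8% and 48.0% of the summed level, Cryba1 between 14.6% and 17.5%, and Crybb2 between 12.2% and 17.9%. Cryaa was thus always the leading member, with a ratio to Cryba1 of 2.16 to 3.09. The tightest pair was Crybb2 and Crygs, whose log2 ratio had an SD of 0.125 over the 14 libraries, although these genes are on different chromosomes. For the neighbors Cryba4 and Crybb1 the SD was 0.380, and for the neighbors Crybb2 and Crybb3 it was 0.319. The median over the 28 pairs was 0.294, so neither neighboring pair was tighter than the median pair. Cryba4 varied most against the others, from 1.45% of the sum in Nrf2 2 to 6.16% in Nrf2 7, where its level was only 2.85 CPM.

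Levels of different genes were compared per length, as CPM per kilobase of the longest coding transcript. Cryab had the highest median over the 14 libraries, 519 CPM per kilobase, followed by Cryaa (439), Cryba1 (301), Crybb2 (234), Crygs (167), Crybb1 (117), Crybb3 (66.9), Cryba2 (53.1), Cryba4 (46.7) and Crym (1.07). Most neighbors in this order kept it within libraries: Cryaa exceeded Cryba1 in 14 of 14, Cryba1 exceeded Crybb2 in 13, Crybb2 exceeded Crygs in 14, Crybb1 exceeded Crybb3 in 14 and Crybb3 exceeded Cryba2 in 14. Cryba2 exceeded Cryba4 in 12 of 14 and Cryba4 exceeded Crym in 13. The exceptions were Cryab, which was higher than Cryaa in 8 of 14 libraries only, and Crygs, which was higher than Crybb1 in 7 of 14, so neither pair had a fixed order. The longest annotated transcript stands in for the transcript expressed, so the per-length levels are approximate.

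To determine whether Nrf2 changed crystallin RNA, the eyes of each mouse were compared. In a paired edgeR fit over 16289 genes, 0 of the 10 crystallins passed an adjusted p of 0.05, against 559 or 3.43% of all genes. Before adjustment, 2955 genes and again 0 of the 10 had a p under 0.05. Under DESeq2, where 11.9% of all genes passed, and under voom with quality weights, where 15.9% did, 1 of the 10 passed, in both cases Crym, which was lower. The median log2 fold change was 0.12 over the 10 genes and -0.04 over all genes tested. With mice 3 and 4 left out, 0 of the 10 passed against 745 or 4.5% of all genes, and the median over the 10 was -0.25.

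In the 8 genes that moved together, log2 fold changes lay between 0.05 (Crybb3) and 0.20 (Crybb1), with SE of 1.13 to 1.45 and adjusted p of 0.955 to 0.990. The 95% interval for Cryaa ran from -3.16 to 3.43, so that neither a large rise nor a large fall was excluded by these 7 mice. The narrowest interval of the 8, that of Cryba4, ran from -2.40 to 2.72. When the signs of the 7 within-mouse differences were permuted (exact, two-sided, smallest possible p 0.0156), their p was 0.766 to 0.953.

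The width of these intervals came from mice that moved in opposite directions. For Cryaa the Nrf2 eye exceeded the control eye by 4.28, 4.45 and 2.43 (log2 CPM) in mice 2, 4 and 6. It was below the control eye in mice 1, 3, 5 and 7, by differences of -1.80, -1.89, -0.84 and -4.91. All 8 genes were higher in the Nrf2 eye of the same 3 mice and lower in the other 4. The largest rise of any of them was 4.98, for Crybb1 in mouse 4, and the largest fall was -4.97, for Crygs in mouse 7. The direction of the fitted change depended on the mice included. All 8 turned lower when mouse 2, mouse 4, mouse 6 or mice 3 and 4 were left out, and also under voom, and they stayed higher in the other 12 of 17 settings. In 0 of these settings did any of the 8 pass the threshold. Across the 28 pairs of these genes, the differences of the 7 mice correlated with an r of 0.970 to 0.999.

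**Figure D2:**
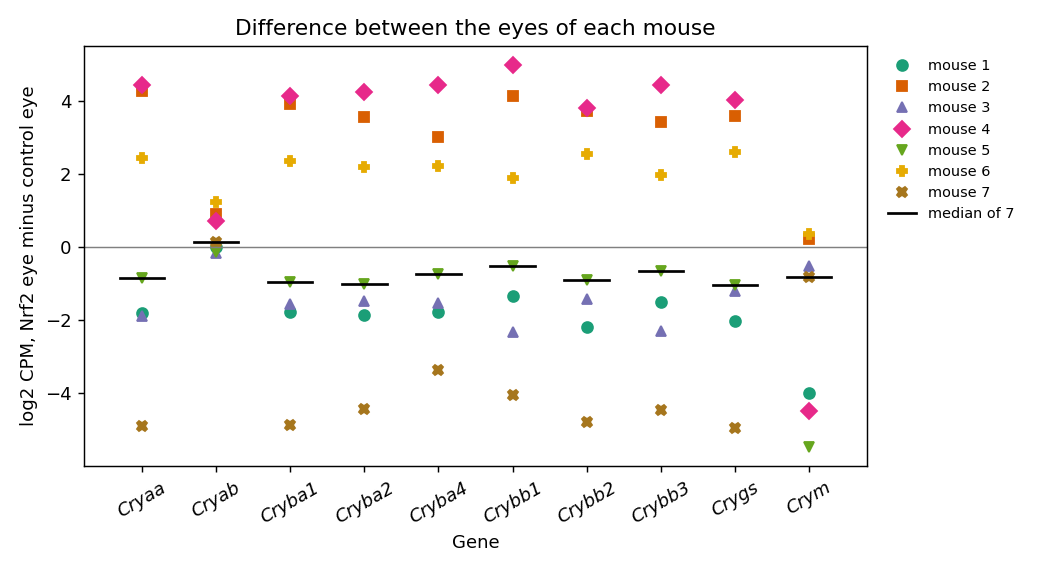
Log2 CPM of the Nrf2 eye minus that of the control eye for each of 7 mice and 10 genes, with the median of the 7 mice as a bar. In 8 genes mice 2, 4 and 6 lay above 0 and mice 1, 3, 5 and 7 below it, whereas Cryab stayed between -0.16 and 1.23 and Crym reached -5.47.

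Levels of markers that the tissue could hold were set beside these values. Of 13 lens genes, 11 were tested and 0 passed. Their summed level was 26.2 to 197 CPM (median 70.0) in control eyes and 26.9 to 194 CPM (median 87.2) in Nrf2 eyes. Within mice this sum had the direction of the 8 crystallins in 7 of 7. Its log2 value had an r of 0.911 and a rho of 0.960 with the mean log2 CPM of the 8 crystallins over the 14 libraries, an r of 0.882 without control 3 and Nrf2 4, and an r of 0.924 without control 2 and Nrf2 7, the libraries farthest from the median. Among single lens genes, r with that mean was 0.952 for Bfsp1, which encodes filensin of the lens fiber beaded filament, 0.924 for the lens fiber membrane protein gene Lim2, 0.921 for the galectin-related gene Grifin and 0.901 for Mip, the water channel of lens fibers. It was 0.930 for Lgsn and 0.914 for Birc7. Mip stood at 0.218 CPM in Nrf2 7 and reached 17.3 CPM in control 3 and 27.1 CPM in Nrf2 3.

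Other lens genes followed less closely. The r was 0.830 for Dnase2b, 0.786 for Foxe3, 0.753 for the connexin gene Gja3, 0.676 for Lenep, 0.362 for Bfsp2 and 0.310 for Hsf4. Lenep was listed at 0 in 10 of 14 libraries, Foxe3 in 4, Dnase2b in 2 and Lgsn in 1. Bfsp2 hardly varied, at 7.24 to 18.02 CPM. The part of lens RNA in the levels of the 8 crystallins was not tested.

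Lists of other tissues moved with the crystallins in part. Of 3 fibroblast genes, 0 passed the test, and their summed level was 52.8 to 486 CPM in control and 135 to 790 CPM in Nrf2 eyes. It had the direction of the 8 crystallins in all 7 mice, with an r of 0.394 and a rho of 0.613 over the libraries (r of 0.617 without control 2 and Nrf2 7). Of 4 genes of corneal and surface epithelium, 0 passed, and their sum, 639 to 36416 CPM in control and 1379 to 16440 CPM in Nrf2 eyes, shared the direction in 5 of 7 mice (r of 0.456 and rho of 0.218). The sums of skeletal muscle and of inner retinal neurons shared it in 6 of 7 (r of 0.399 and 0.232, or 0.621 and 0.366 without control 2 and Nrf2 7). Without control 3 and Nrf2 4, the r was 0.112 for skeletal muscle and 0.1785 for inner retinal neurons. For the fibroblast and corneal sums it was then 0.282 and 0.390. Trpm1 alone, at 452 to 1936 CPM, made up most of the inner retinal sum in every library, so this sum mainly shows Trpm1. Single genes of that list had r of -0.335 (Slc6a9) to 0.343 (Rbpms) with the mean of the 8 crystallins, and Trpm1 had 0.314. The corneal sum was highest in control 6, where the 8 crystallins summed to 409 CPM. The sum of the 12 RPE genes shared the direction in 2 of 7 mice, with an r of -0.138 and a rho of -0.257. Its largest members in every library were Ttr (1183 to 14241 CPM) and Rgr (1538.5 to 11560 CPM). Ttr was fitted higher in Nrf2 eyes (log2 fold change 1.58, SE 0.45, adjusted p 0.104 in edgeR). Single RPE genes had r of -0.294 (Otx2) to 0.096 (Lrat) with the mean of the 8 crystallins. Of the 12, 1 passed, Rpe65, which was lower in Nrf2 eyes (log2 fold change -2.17, SE 0.37, adjusted p 0.0199 in edgeR). Whether these tissues contributed to the crystallin levels was not tested.

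**Figure D3:**
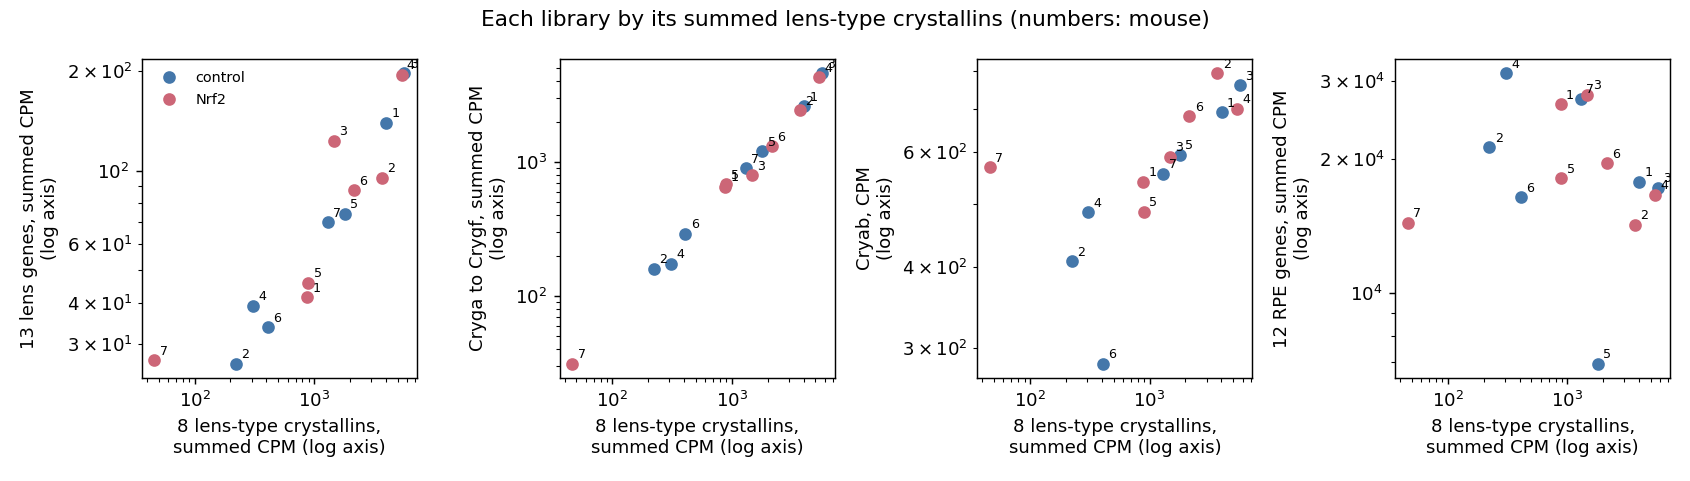
Each of 14 libraries by the summed CPM of the 8 lens-type crystallins (horizontal, log axis) against 13 lens genes, Cryga to Crygf, Cryab and 12 RPE genes (vertical, log axes), with control libraries in blue, Nrf2 libraries in red and mouse numbers beside the points. Lens genes (r of 0.911) and gamma-crystallins were higher where the 8 crystallins were, Cryab stayed within 2.79-fold, and the RPE sum showed an r of -0.138. Ttr and Rgr were the largest members of the RPE sum.

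Cryab varied far less than the other alpha-crystallin. In control eyes its lowest, median and highest levels were 284, 556 and 761 CPM, and in Nrf2 eyes 486, 591 and 793 CPM. The lowest library was control 6 and the highest was Nrf2 2, and the groups overlapped. The distance between these libraries was 2.79-fold, against at least 51.0-fold in the 8 genes above, and the SD of its log2 CPM, 0.385, was larger than in 47.4% of genes. In Nrf2 7, where Cryaa stood at 16.5 CPM, Cryab stood at 569 CPM. Its r with the 8 genes was 0.579 to 0.647 (rho 0.789 to 0.824), and 0.471 to 0.561 without control 3 and Nrf2 4. With their mean log2 CPM its r was 0.602, and 0.826 without control 2 and Nrf2 7, the libraries farthest from the median of that mean. Its differences between the eyes of the 7 mice had an r of 0.743 to 0.784 with those of the 8 genes.

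Between the groups, Cryab averaged 539.9 ± 164 CPM in control and 623 ± 106 CPM in Nrf2 eyes (SD, n = 7). The fitted log2 fold change of 0.38 (SE 0.20, 95% interval -0.08 to 0.84) had an adjusted p of 0.358 in edgeR and a p of 0.188 in the exact permutation of signs. The Nrf2 eye was the higher one in 4 of 7 mice, by 0.14 to 1.23, and in mice 1, 3 and 5 the difference was -0.00259, -0.16 and -0.13. The largest differences, 0.90, 0.70 and 1.23, were in mice 2, 4 and 6, in which the 8 genes were also higher in the Nrf2 eye. The fitted change was above 0 in all 17 other settings tried, from 0.14 to 0.47, and passed in 0 of them. Among 14922 genes outside the 10, the genes most like Cryab were Sspn, for the muscle membrane protein sarcospan (r of 0.930 over 14 libraries, rho of 0.855), Tlr7 (r of 0.895, rho of 0.771) and Myh11, the smooth muscle myosin heavy chain (r of 0.883, rho of 0.855). Summed fibroblast genes had an r of 0.749 (rho 0.754) with Cryab, or 0.493 without control 2 and control 6, the libraries farthest from its median. Summed lens genes had an r of 0.715 (rho 0.815), or 0.665 without the same libraries. The part of either tissue in the level of Cryab was not tested.

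Crym was the least abundant of the 10 and did not follow the lens-type crystallins. Its lowest, median and highest levels were 0.696, 5.52 and 35.4 CPM in control eyes and 0.0548, 1.15 and 6.89 CPM in Nrf2 eyes. It was highest in control 1 and control 4 (23.2 CPM) and lowest in Nrf2 5, where 2 counts gave an exact 95% Poisson interval of 0.00663 to 0.198 CPM. The groups overlapped, and of the 6 highest libraries 5 were control eyes and 1 was Nrf2 2. With the 8 lens-type crystallins its r was -0.141 to 0.005 (rho -0.152 to -0.064).

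The fitted log2 fold change of Crym was -2.05 (SE 0.97, 95% interval -4.25 to 0.16, adjusted p 0.309 in edgeR). Within mice it was lower after Nrf2 in 5 of 7, with differences of -3.99, -0.52, -4.48, -5.47 and -0.83 (log2 CPM) in mice 1, 3, 4, 5 and 7, and it was higher by 0.22 and 0.35 in mice 2 and 6. The exact permutation of signs gave 0.0781 as its p. The change was below 0 in all 17 other settings, from -2.83 to -1.45, and passed in 2 of them, DESeq2 (-2.04, adjusted p 0.0432) and voom with quality weights (-2.83, adjusted p 0.0340).

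Photoreceptor genes moved with Crym. Over the 14 libraries its log2 CPM had an r of 0.893 and a rho of 0.873 with the sum of 9 rod genes, and an r of 0.837 and a rho of 0.763 with the sum of 8 cone genes. Without control 1 and Nrf2 5, the libraries farthest from its median, these r were 0.856 and 0.815. The rod sum was 24.3 to 535 CPM in control and 7.78 to 118 CPM in Nrf2 eyes, and it was lower in the Nrf2 eye of 6 of 7 mice. The cone sum was 41.3 to 1054 CPM in control and 17.5 to 103 CPM in Nrf2 eyes, lower in 7 of 7. Of these, 0 of 9 rod genes and 2 of 8 cone genes (Opn1sw and Gnat2) passed, both lower. Summed inner retinal genes had an r of 0.554 with Crym and summed endothelial genes one of 0.825. Of the 4 endothelial genes, Kdr alone had a high r with Crym, 0.871. The r was 0.414 for Plvap, 0.387 for Cdh5 and 0.189 for Pecam1. Most of the inner retinal sum was Trpm1, whose own r with Crym was 0.187. Among the rest of that list, r with Crym ran from -0.065 (Rbpms) to 0.8925 (Cabp5). The genes most like Crym were the chromatin remodeler gene Chd7 (r of 0.941), Cdr1 (r of 0.928) and the cone transducin subunit Gngt2 (r of 0.924). The part of retinal RNA in the level of Crym was not tested.

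**Figure D4:**
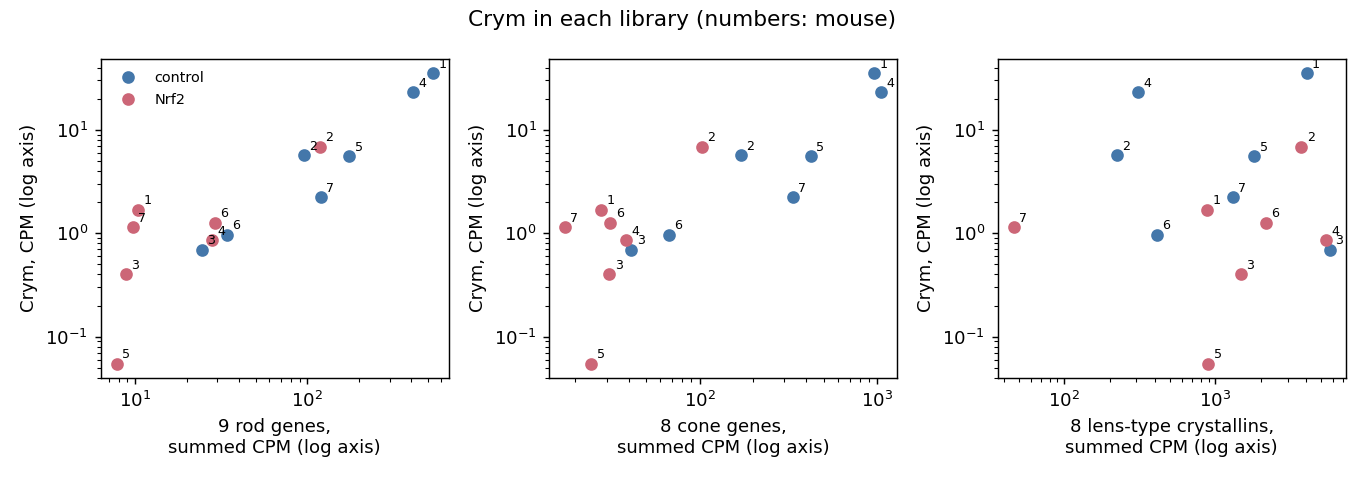
Crym (vertical, CPM, log axis) in each of 14 libraries against the summed CPM of 9 rod genes, 8 cone genes and the 8 lens-type crystallins (horizontal, log axes), with control libraries in blue, Nrf2 libraries in red and mouse numbers beside the points. Crym was higher where the rod and cone sums were (r of 0.893 and 0.837) and showed no such course against the crystallins.

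The 14 other crystallin genes were read from the same fit, to see how far the pattern extended. The lens gamma-crystallins Cryga, Crygb, Crygc, Crygd, Cryge and Crygf summed to 160 to 4614 CPM in control and 31.2 to 4305 CPM in Nrf2 eyes, and their sum had the direction of the 8 genes in 7 of 7 mice. Each had an r of 0.985 to 0.998 with the mean log2 CPM of the 8. Among 14922 genes outside the 10, the 3 genes most like each of the 8 all belonged to this family, led by Crygd for Cryaa (r of 0.998), Cryba1, Cryba2, Crybb2 and Crygs, by Crygb for Cryba4 and Crybb1, and by Crygc for Crybb3. These 6 genes are close paralogs, so the division of reads among them is uncertain, and their fitted changes of 0.01 to 0.11 had adjusted p of 0.976 to 0.998. Crygn, a gamma-crystallin relative known from lens and retina, stood at only 2.40 to 9.37 CPM, with an r of 0.719 (rho of 0.815).

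The crystallin relatives outside the lens did not follow. Crybg1, Crybg2 and Crybg3, large proteins with beta- and gamma-crystallin domains, had r of 0.411, 0.310 and 0.287 with the mean of the 8, and those of the enzyme-like Cryz, Cryzl1, Cryzl2 and Cryl1 were 0.150, 0.168, 0.043 and 0.360. Of the 14 genes, 1 passed the test. Cryzl2, which resembles the quinone oxidoreductase Cryz, stood at 10.6 to 18.5 CPM in control eyes and at 17.03 to 36.0 CPM in Nrf2 eyes, with means of 14.7 ± 2.55 and 29.97 ± 6.85 CPM (SD, n = 7). The lowest Nrf2 value, that of Nrf2 4, lay within the control range. Its log2 fold change was 1.14 (SE 0.13, 95% interval 0.85 to 1.43, adjusted p 0.00936 in edgeR). In 7 of 7 mice the Nrf2 eye was higher, by 0.85 to 1.55, so the exact permutation of signs reached 0.0156, the smallest p it allows. Without mice 3 and 4 the log2 fold change was 1.22 (SE 0.16, adjusted p 0.0122 in edgeR), and over the 17 other settings it was 1.07 to 1.22 with adjusted p of 1.19e-12 to 0.0383. Cryz itself, zeta-crystallin, averaged 78.5 ± 13.95 CPM in control and 93.0 ± 12.2 CPM in Nrf2 eyes (SD, n = 7), or 0.39 higher on the log2 scale (SE 0.14), with an adjusted p of 0.180 in edgeR.

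**Figure D5:**
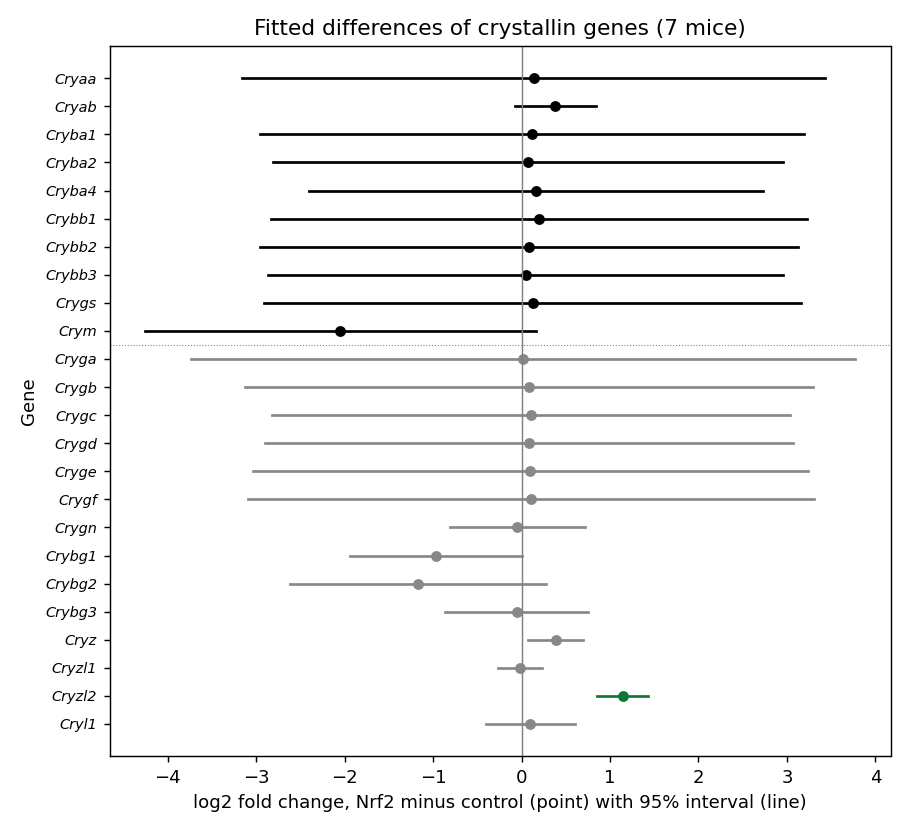
Fitted log2 fold change (Nrf2 minus control, point) with its 95% interval (line) for the 10 crystallins (above the dotted line, black) and 14 other crystallin genes (below, gray, and green where the adjusted p was under 0.05). All 10 black intervals include 0, those of Cryaa and the beta- and gamma-crystallins spanned more than 5 log2 units, and Cryzl2 at 1.14 was the 1 gene that passed.

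Cryab belongs to the small heat shock proteins, and other genes of that family and of crystallin regulation were read in the same way. Of 6 small heat shock protein genes, 5 were tested and 0 passed, with a median log2 fold change of 0.55. Nearest to the threshold were Hspb6 (0.55, SE 0.17, adjusted p 0.138) and Hspb8 (0.71, SE 0.22, adjusted p 0.137), each with higher values in 6 of 7 mice. Hspb2, which overlaps Cryab, stood at 3.704 to 15.045 CPM and had a log2 fold change of 0.06 (SE 0.31). Hspb1 ranged from 33.3 to 544 CPM, with a log2 fold change of -0.55 (SE 0.56), and Hspb7 stood at no more than 2.61 CPM.

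Of 11 genes that regulate crystallins in the lens, 8 were tested and 0 passed, with a median of -0.39. Pax6, the master regulator of eye development, averaged 345 ± 70.1 CPM in control and 210.4 ± 68.2 CPM in Nrf2 eyes (SD, n = 7), a log2 difference of -0.64 (SE 0.19) with an adjusted p of 0.131 in edgeR. For Hsf1, the heat shock factor, the log2 difference was -0.35 (SE 0.11, adjusted p 0.130), with lower values in 7 of 7 mice. Maf, the large Maf factor of lens fibers, hardly varied, at 8.41 to 16.6 CPM, and had a log2 fold change of -0.01 (SE 0.14). Six3 and Hsf4 had changes of 0.18 and 0.41, and Prox1 and Sox2, which are also expressed in the inner retina, had changes of -1.47 and -1.71 with adjusted p of 0.518 and 0.248. The r of these 8 regulators with the mean of the 8 crystallins lay between -0.455 (Hsf1) and 0.310 (Hsf4). Of the 3 regulators too low to be tested, it was 0.786 for Foxe3, 0.530 for Pitx3 and 0.481 for Sox1 (rho 0.840, 0.665 and 0.417).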

How the data were processed

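Amplified RNA of 14 RPE samples (7 mice, both eyes) was sequenced. The paper reports fewer pairs for its comparison at this age and does not name them, so the sets of eyes differ. The table deposited by the authors holds estimated counts for each gene as whole numbers, not normalized between libraries. The authors describe Salmon (version 0.9.1 per the labels) with counts summed per gene, and in parallel alignment to mm10 with Ensembl annotation. That the table came from Salmon was inferred from its rows and is not stated. Such counts divide reads between paralogs by a model, so values of close gamma-crystallin copies are uncertain. The strand setting and the run of each library (2 runs) are not given in the sources used here, so no comparison within runs was made. Amplified reads carry no molecular identifiers, so counting intervals cover counting error only.

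The vector row (human NFE2L2) stayed in library totals and out of the tests. Genes were kept by filterByExpr (minimum count 10) and scaled by TMM. Group was tested, with mouse as a further term, by edgeR's quasi-likelihood fit (edgeR 4.0.16 in R 4.3.3), with Benjamini-Hochberg adjustment over 16289 genes. The eyes of a mouse were also compared as a difference of log2 CPM (prior count 2), by exact two-sided permutation of the 7 signs (128 patterns). Pairing follows the labels, which give both eyes their animal's number. As a check, the eyes' deviations from their group's mean had, for mice 1 to 7, r of -0.002, 0.076, 0.050, -0.340, 0.351, -0.180 and 0.158 over 14932 genes. The scripts were tested on simulated data.

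The 17 alternatives were a fit without the mouse term, RLE or upper-quartile scaling, DESeq2 1.42.0, voom with quality weights (limma 3.58.1), no filter, a mean of at least 10 counts, thinning to the smallest library, each mouse or mice 3 and 4 left out, and, chosen after seeing the data, scaling on the totals of the tested genes. Symbols and lengths came from GENCODE M21 (GRCm38; 34401 of 34452 rows matched). Members, gene lists and rules were chosen with earlier results of these data known. Named were the 10 members, genes of the related lists that passed or averaged at least 1 CPM, 6 lens genes whatever their level, and for each member the 3 tested genes with the highest Pearson r of log2 CPM among genes with a mean of at least 1 CPM. Some listed genes are not reported here by name. Correlations across libraries are descriptions without a p.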

Additional observations from a re-analysis of the deposited data

Results flagged for a closer look

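In each group of 7 values, the highest or lowest was compared with the distance to its nearest neighbor. Of 30 groups of 7 examined (10 genes in control eyes, in Nrf2 eyes and as differences between the eyes of a mouse), 3 held a value that stood apart. Chance alone does this in about 5 of 100 groups of independent, normally distributed values. Most CPM groups here were skewed to high values, and 8 of the 10 genes moved together, so that rate is only rough. Cryba4 in Nrf2 4, at 142 CPM, stood far above the other Nrf2 eyes, which ranged up to 58.0 CPM, and close to control 3 at 145 CPM. Crybb3 in Nrf2 4, at 311 CPM, stood far above the other Nrf2 eyes, which reached 131 CPM, and close to control 3 at 323 CPM. Crym in Nrf2 2, at 6.89 CPM, stood far above the other Nrf2 eyes, which reached 1.69 CPM. Nrf2 2 was the shallowest library, and its rod sum of 118 CPM was the highest among Nrf2 eyes.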

How the results depend on the processing

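In the paired edgeR fit 559 genes passed (479 higher, 80 lower), and 0 of the 10 crystallins did. Without a replicate block 1100 genes passed (877 higher, 223 lower), under DESeq2 1943 (1238 and 705), under voom with quality weights 2590 (1585 and 1005), and without a filter 347 (307 and 40). With 1 mouse left out at a time the count ranged from 111 (without mouse 7) to 2050 (without mouse 4, 1045 higher and 1005 lower), and it was 143, 387, 194, 155 and 240 without mouse 1, 2, 3, 5 and 6. With mice 3 and 4 left out it was 745 (492 and 253). RLE scaling gave 551, upper-quartile scaling 477, the mean filter 538, thinning 565, and scaling on the totals of the tested genes 441 (353 and 88). Of the crystallins 1 passed under DESeq2 and 1 under voom, both times Crym, and 0 passed in the other 15 settings, the fit without the replicate block included. The replicate block changed no crystallin's call. The 8 lens-type crystallins were fitted higher in 12 and lower in 5 of the 17 settings, with 0 past the threshold. The cause of the differences between tools was not tested. At the 2 to 1426 counts of Crym per library, counting error was not small in the lowest libraries, while the other 9 genes had at least 73 counts in each.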

Other observations

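The remaining marker lists are given as values. Of 12 genes of inner retinal neurons 0 passed the test, with summed levels of 714 to 2826 CPM in control and 1291 to 2171 CPM in Nrf2 eyes. Trpm1 made up most of these sums. Of 4 genes of Muller glia and astrocytes 0 passed, and their sums were 292 to 701 CPM in control and 424 to 724 CPM in Nrf2 eyes. The 6 skeletal muscle genes summed to 11.4 to 246 CPM in control and 12.03 to 243 CPM in Nrf2 eyes, with 0 past the threshold, and the highest libraries of the groups were again control 3 and Nrf2 4. The 4 endothelial genes summed to 38.6 to 171 CPM in control and 47.8 to 99.1 CPM in Nrf2 eyes, the 3 immune genes to 12.3 to 38.5 and 13.1 to 56.8 CPM, and the 2 hemoglobin genes to 401 to 2713 and 248 to 999 CPM, with 0 genes past the threshold in each. Over the 14 libraries, r with the mean log2 CPM of the 8 lens-type crystallins was 0.399 for skeletal muscle (rho 0.499), 0.232 for inner retinal neurons, 0.179 for Muller glia and astrocytes, 0.025 for endothelium, 0.019 for immune cells and -0.158 for blood. Without control 2 and Nrf2 7, the libraries farthest from the median of that mean, these r were 0.621, 0.366, 0.271, 0.033, 0.540 and -0.022. Without control 3 and Nrf2 4 they were 0.112, 0.1785, 0.231, 0.120, -0.305 and -0.253.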
